A study of Homo sapiens with 27 samples.

Results

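Cells of the uveal melanoma line 92.1 were grown in DMSO or with the focal adhesion kinase inhibitor VS-4718 (FAKi) at 100 nM, and the libraries of day 3 gave the earliest comparison of both treatments. The comparison holds 6 of the 27 mRNA libraries of the series, the 3 whose titles read FAKi day 3 and the 3 whose titles read DMSO day 3. The libraries were taken by title and not by a measured value, though earlier results of these data were known. The remaining libraries cover day 0, in DMSO alone, and days 7, 14 and 21 under either treatment, 3 to a group. All groups share this *GNAQ* mutant line, so a single genotype stands behind every value, and the cells were passaged throughout with medium and treatment renewed. The methods describe both triplicate plating and repeats of the complete experiment, and the labels number the replicates without saying which is counted, so p-values measure the spread between these samples, which may be technical.

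FAK, the product of *PTK2*, is a tyrosine kinase that is recruited to integrins where cells attach to the extracellular matrix, and it also acts as a scaffold. In uveal melanoma the mutated G protein alpha subunit encoded by *GNAQ* signals along a pair of branches, one through phospholipase C, protein kinase C and RasGRP3 to ERK, and one through the exchange factor TRIO to FAK and the coactivator YAP. VS-4718 blocks the catalytic activity of FAK. The comparison asks which transcripts differed early under this inhibitor.

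Counts per library were between 24759579 and 43651551 in DMSO and between 13135695 and 19661612 in FAKi, so every DMSO library was deeper. Levels are given below as CPM, counts divided by the TMM-scaled library total, always in the order of replicates 1, 2 and 3 and with DMSO before FAKi, except where the FAKi levels are set against those of DMSO, and differences are log2 fold changes of FAKi over DMSO with their standard error (SE) from edgeR. The melanocytic markers *MITF*, *SOX10*, *PMEL*, *MLANA*, *TYR* and *TYRP1* were present in all 6 libraries, with *MITF* at 206, 195 and 157 CPM in DMSO and 244, 259 and 246 in FAKi, and *TYRP1* at 5870.3, 7092 and 5418 and 6605, 6890.0 and 6439.7. *SOX10* was at 922, 416 and 419 CPM in DMSO and 815, 812 and 787 in FAKi, so that 1 DMSO library had over 2-fold the level of the other two. Of the 10 fibroblast, 10 epithelial, 10 leukocyte and 10 endothelial markers examined, 4, 5, 2 and 3 had enough counts to be tested, and the defining markers *DCN*, *EPCAM*, *PTPRC*, *VWF* and *CDH5* did not reach 20 counts over the 6 libraries. The summed fibroblast markers were at 18.4, 13.3 and 15.2 CPM in DMSO and 15.7, 18.4 and 16.9 in FAKi. The leukocyte sum, almost all of it *CD68*, was at 129.8, 65.3 and 81 CPM in DMSO and 98.9, 113.5 and 109.3 in FAKi, and the endothelial sum ran from 85.05 to 97.8 in DMSO and from 87.02 to 97.0 in FAKi. The epithelial sum was at 25.9, 33.7 and 41.0 CPM in DMSO and lower, at 19.9, 19.0 and 17.7, in FAKi, mostly through the keratin *KRT18*, which melanoma lines can also express. In bulk RNA, fewer cells of a type and less RNA per cell cannot be told apart.

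The 3 DMSO libraries of day 3 differed widely from each other, and this bears on every result that follows. Over 17012 genes with a mean of at least 1 CPM, the root mean square log2 difference was 0.569 between DMSO replicates 1 and 2, 0.480 between 2 and 3 and 0.802 between 1 and 3. Between FAKi libraries it was 0.284, 0.326 and 0.325. DMSO replicate 1 lay closer to the FAKi libraries, at 0.323, 0.420 and 0.422, than to either library of its own group, and DMSO replicate 3 lay 0.867 to 0.916 away from them. Against the DMSO libraries of day 0 the distance was 0.258 to 0.365 for DMSO replicate 1, 0.508 to 0.523 for replicate 2 and 0.724 to 0.772 for replicate 3. Reads on the mitochondrial chromosome made up 18.1%, 9.59% and 8.61% of the counts in DMSO and 16.8%, 18.7% and 17.4% in FAKi, and were 16.98% to 18.8% at day 0. Cytosolic ribosomal protein genes held 5.72%, 8.83% and 11.4% in DMSO and 5.83%, 5.70% and 5.98% in FAKi, and 6.34% to 7.15% at day 0. On both measures DMSO replicate 1 stood with FAKi and day 0, and DMSO replicates 2 and 3 stood apart.

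The same split followed the length of the counted transcript. For 670 genes under 1000 bases, the median log2 level relative to the FAKi mean was 9.97e-05, 0.17 and 0.56 in DMSO replicates 1, 2 and 3, and for 1150 genes of 8000 bases or more it was -0.05, -0.29 and -0.73. The FAKi libraries stayed within 0.07 of their mean in every length class. Across 12847 protein-coding genes of at least 1 CPM, which are not independent replicates, the log2 fold change had a Spearman correlation of 0.408 with length, 0.463 without DMSO replicate 1 and 0.0682 after each library was corrected for length by a smooth curve. Some gene and list results are therefore given beside their value without DMSO replicate 1 or after this length correction. Most fold changes of single genes are given from all 6 libraries alone, and they can differ under those settings. The log2 fold change of *DCT* was 1.88 with all 6 libraries and 2.65 without DMSO replicate 1. That of *BRCA2* was 1.59 with all 6 libraries and 1.27 after length correction. The part of RNA quality, of growth state or of the library preparation in this split was not tested.

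**Figure D1:**
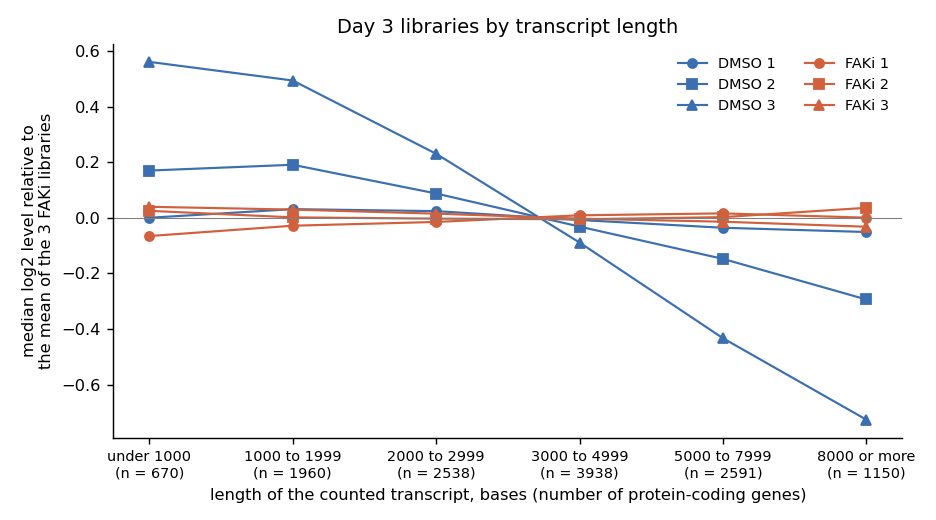
The median log2 level of protein-coding genes relative to the mean of the FAKi libraries (vertical axis) is plotted against the length class of the counted transcript in bases (horizontal axis), with a line for each of the 6 libraries of day 3. DMSO replicate 3 slopes from 0.56 in the shortest class to -0.73 in the longest, DMSO replicate 2 from 0.17 to -0.29, and DMSO replicate 1 runs with the FAKi lines.

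Of 61533 genes, 22846 had at least 20 counts in total and were tested, 14467 of them protein-coding. With p-values of edgeR's quasi-likelihood test adjusted by Benjamini-Hochberg, 0 genes (percent called: 0) had an adjusted p of at most 0.05 with an absolute log2 fold change over 1, and the smallest adjusted p was 0.0716. At an unadjusted p under 0.05 there were 5442 genes, 2245 higher (9.83%) and 3197 lower (14%) in FAKi, of which 1734 and 2055 were protein-coding. The groups did not overlap, with FAKi above DMSO in 3599 genes (15.8%) and below it in 3506 (15.3%), which for protein-coding genes came to 2785 and 2521. DESeq2, the tool the study names, called 745 of 17530 genes with the same thresholds, 234 higher (1.33%) and 511 lower (2.92%). Without DMSO replicate 1, edgeR called 2765 of 21745 genes, 1333 higher (6.13%) and 1432 lower (6.59%). The lists of calls by DESeq2 and by edgeR without that library shared 738 genes, which is 99.1% of the DESeq2 list and 26.7% of the other, and 332 of them were protein-coding. After length correction of all 6 libraries edgeR called 17 genes (0.0744%), 5 higher and 12 lower. They were *ADGRG1*, *HLX*, *HLX-AS1*, *NOX5*, *DOK5*, *TMEM132A*, *CKB*, *SEMA6B*, *IL2RB*, *HSPB7*, *TLCD1* and *CYFIP2* on the lower side and *ITGA9*, *LRRCC1*, *BRCA1*, *DLGAP5* and a long non-coding RNA gene on the higher side, with adjusted p between 0.0195 and 0.0497. *BRCA1*, a repair protein, and *DLGAP5*, a spindle protein, had corrected log2 fold changes of 1.15 and 1.05, and were named for these calls after their values were seen. The verbs higher and lower are used below for values, since no gene passed both thresholds in the comparison of all 6 libraries, and each gene named has an adjusted p of at least 0.0716 there.

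Single genes were named by a rule based on their values, so their values are a description. It took the 15 higher and 15 lower protein-coding genes with the largest fold change among 159 higher and 149 lower genes that did not overlap between groups, kept their sign whichever library was left out, and were called both by DESeq2 and without DMSO replicate 1. A second part took the 10 protein-coding genes with the smallest p.

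**Figure D2:**
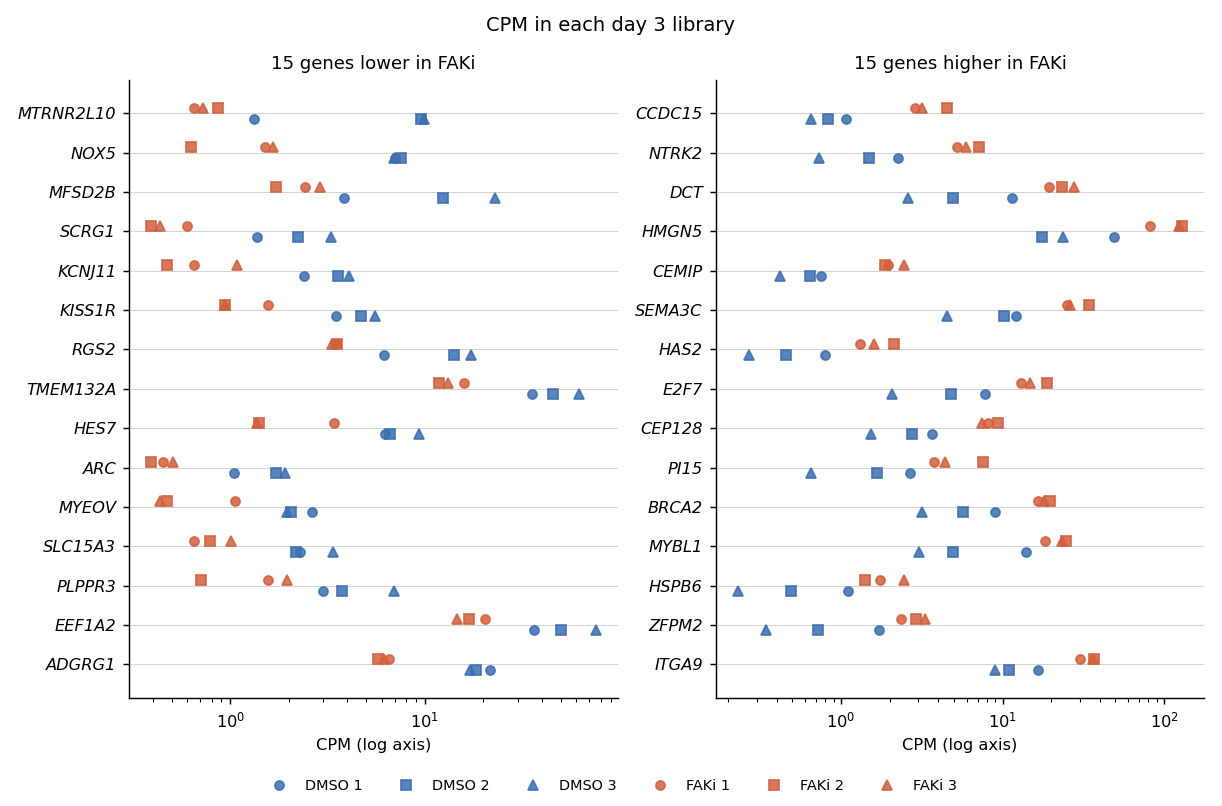
The CPM of each day 3 library (logarithmic axis) is shown for the 15 lower and the 15 higher protein-coding genes with the largest fold change under the naming rule, with 1 point per library. In all 30 genes the DMSO and FAKi points do not overlap, and DMSO replicate 1 is the DMSO point nearest to FAKi in all 15 higher genes.

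Among receptors and signalling genes, *ADGRG1* (ENSG00000205336.14, chr16:57639518-57665032 of hg38, plus strand), an adhesion G protein-coupled receptor also known as GPR56, had the smallest p of all genes. It was at 21.7, 18.2 and 17.1 CPM in DMSO and 6.51, 5.72 and 6.15 CPM in FAKi. Every FAKi library was below the lowest DMSO library, and the day 0 libraries were at 15.97, 15.1 and 16.3 CPM. The log2 fold change was -1.63 (SE 0.18, adjusted p = 0.0716 by edgeR's quasi-likelihood test), -1.51 without DMSO replicate 1 and -1.68 after length correction. It and *HLX* were the only genes called in the fit without DMSO replicate 3 (0.00901% of all tested), each with adjusted p = 0.0466 in edgeR.

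*HLX* (ENSG00000136630.13, chr1:220879431-220885056 of hg38, plus strand), a homeobox transcription factor, was at 109, 102 and 132 CPM in DMSO and 49.4, 46.9 and 50.2 CPM in FAKi, a log2 fold change of -1.23 (SE 0.15). The day 0 libraries were at 113, 126 and 113 CPM, between the lowest and the highest DMSO library. *NOX5* (ENSG00000255346.10, chr15:69014695-69062762 of hg38, plus strand), a calcium-regulated NADPH oxidase, was at 7.05, 7.51 and 6.92 CPM in DMSO and 1.503, 0.627 and 1.66 CPM in FAKi (log2 fold change -2.47, SE 0.32). The gap between its lowest DMSO and highest FAKi library was 1.99 on the log2 scale with a prior count, the widest among protein-coding genes with a mean of at least 1 CPM. The annotation holds another entry of the same name over 98.7% of the exon bases of *NOX5*, so reads may have been split between them.

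*DOK5* (ENSG00000101134.12, chr20:54475593-54651169 of hg38, plus strand), a docking protein for receptor tyrosine kinases, was at 28.9, 42.8 and 50.1 CPM in DMSO and 13.7, 13.01 and 13.9 CPM in FAKi (log2 fold change -1.58, SE 0.21). The neural membrane protein gene *TMEM132A* (ENSG00000006118.15, chr11:60924481-60937159 of hg38, plus strand) was at 35.5, 45.4 and 61.7 CPM in DMSO and 15.9, 11.8 and 13.1 CPM in FAKi (log2 fold change -1.80, SE 0.22). In these 2 genes DMSO replicate 3 was the highest and DMSO replicate 1 the lowest of the DMSO libraries, yet still over 2-fold above the FAKi libraries. *SLC15A3*, which encodes a lysosomal peptide and histidine transporter and shares 8.01% of its exon bases with *TMEM132A*, was also lower, at 2.29, 2.16 and 3.36 CPM in DMSO and 0.651, 0.784 and 1.01 in FAKi.

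Several lower genes encode receptors or regulators of G protein signalling. *KISS1R*, the kisspeptin receptor, which couples to Gq, was at 3.48, 4.67 and 5.54 CPM in DMSO and 1.55, 0.940 and 0.941 CPM in FAKi (log2 fold change -1.96, SE 0.31). *RGS2*, which switches off Gq by speeding GTP hydrolysis, was at 6.14, 14.1 and 17.3 CPM in DMSO and 3.51, 3.53 and 3.33 CPM in FAKi (log2 fold change -1.85, SE 0.35). Its FAKi libraries were tightly grouped, while the DMSO libraries spread around the day 0 level of 12.6, 9.92 and 10.7 CPM. *IL2RB*, the beta chain of the interleukin-2 receptor, was at 6.23, 7.97 and 7.26 CPM in DMSO and 2.81, 2.35 and 2.61 in FAKi, and *SEMA6B*, a transmembrane semaphorin, at 12.2, 13.1 and 16.6 and 5.61, 4.39 and 5.72. *KCNJ11*, the pore-forming subunit of the ATP-sensitive potassium channel, was at 2.38, 3.57 and 4.09 CPM in DMSO and 0.651, 0.470 and 1.09 in FAKi.

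Others of the lower set are known from neurons or muscle. *EEF1A2*, the elongation factor of neurons and muscle, was at 36.3, 50.04 and 75.5 CPM in DMSO and 20.3, 16.8 and 14.7 CPM in FAKi (log2 fold change -1.64, SE 0.26). *CKB*, brain creatine kinase, was at 264, 270.1 and 390.3 CPM in DMSO and 142, 127 and 113 in FAKi (log2 fold change -1.28, SE 0.19), and *HSPB7*, a small heat shock protein of muscle, at 38.6, 48.2 and 59.8 and 22.04, 18.6 and 16.3. *ARC*, a neuronal immediate early gene, was lower in all FAKi libraries at 0.451, 0.392 and 0.507 against 1.05, 1.71 and 1.91 CPM. *HES7*, a basic helix-loop-helix repressor, *PLPPR3*, a phospholipid phosphatase-related membrane protein, *SCRG1* and *MYEOV* were also below every DMSO library, with log2 fold changes of -1.80, -1.67, -2.22 and -1.70. In *MFSD2B* and *MTRNR2L10*, and less strongly in *RGS2* above, the value rested mostly on DMSO replicates 2 and 3. *MFSD2B*, a sphingosine-1-phosphate transporter, was at 3.83, 12.4 and 22.96 CPM in DMSO and 2.40, 1.72 and 2.89 in FAKi. *MTRNR2L10*, a copy of the mitochondrial *MT-RNR2* sequence whose reads may be shared with the original, was at 1.33, 9.56 and 9.90 and 0.651, 0.862 and 0.724 CPM.

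Among the higher genes, *ITGA9* (ENSG00000144668.12, chr3:37452141-37823507 of hg38, plus strand), the alpha-9 integrin subunit, was at 16.5, 10.96 and 8.94 CPM in DMSO and 30.4, 36.7 and 36.5 CPM in FAKi. The DMSO libraries spread around the day 0 level of 13.4, 11.1 and 11.3 CPM, and each FAKi library was well above both groups. The log2 fold change was 1.5 (SE 0.23), 1.80 without DMSO replicate 1 and 1.26 after length correction, where it was called with an adjusted p of 0.0381 in edgeR. *ITGA9* shares 9.71% of its exon bases with an antisense gene. *NTRK2* (ENSG00000148053.18, chr9:84668551-84815706 of hg38, plus strand), the receptor for brain-derived neurotrophic factor, was at 2.24, 1.48 and 0.726 CPM in DMSO and 5.21, 7.13 and 5.93 CPM in FAKi (log2 fold change 2.01, SE 0.37).

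*SEMA3C*, a secreted semaphorin, was at 12.1, 10.2 and 4.51 CPM in DMSO and 25.1, 34.5 and 26.2 CPM in FAKi (log2 fold change 1.67, SE 0.32). *HAS2* and *CEMIP*, which act in hyaluronan turnover, were higher at low levels, and no list of such genes was counted. *HAS2*, which makes hyaluronan, was at 0.793, 0.455 and 0.267 CPM in DMSO and 1.30, 2.12 and 1.59 in FAKi, and *CEMIP*, which breaks it down, was at 0.747, 0.645 and 0.420 and 1.95, 1.88 and 2.46 CPM. *PI15*, a secreted protease inhibitor, and *ZFPM2*, a cofactor of GATA factors, were higher by 1.62 and 1.56 on the log2 scale. *HSPB6*, a small heat shock protein, was higher by 1.56, from 1.10, 0.493 and 0.229 to 1.75, 1.41 and 2.46 CPM, and shares 45.2% of its exon bases with a neighbouring gene.

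Other higher genes have known roles in the cell cycle or at the centrosome. *E2F7*, a repressor of the E2F family, was at 7.79, 4.78 and 2.06 CPM in DMSO and 12.97, 18.8 and 14.7 CPM in FAKi, and *BRCA2*, a recombination repair protein, at 9.03, 5.69 and 3.17 and 16.5, 19.7 and 18.02. *MYBL1*, a relative of B-MYB, was at 14.02, 4.97 and 3.02 CPM in DMSO and 18.4, 24.7 and 23.4 in FAKi, with DMSO replicate 1 far above the other DMSO libraries. *CCDC15* and *CEP128*, which encode centrosomal proteins, were higher by 2.02 and 1.64 (SE 0.32 and 0.30), and *LRRCC1*, also centrosomal, was at 23.1, 22.9 and 19.1 CPM in DMSO and 41.8, 46.8 and 46.7 CPM in FAKi (log2 fold change 1.05, SE 0.15). *HMGN5*, a nucleosome-binding protein, was at 49.3, 17.6 and 23.8 CPM in DMSO and 81.8, 129.7 and 124 in FAKi, with day 0 at 61.5, 58.6 and 47.2, below FAKi.

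**Figure D3:**
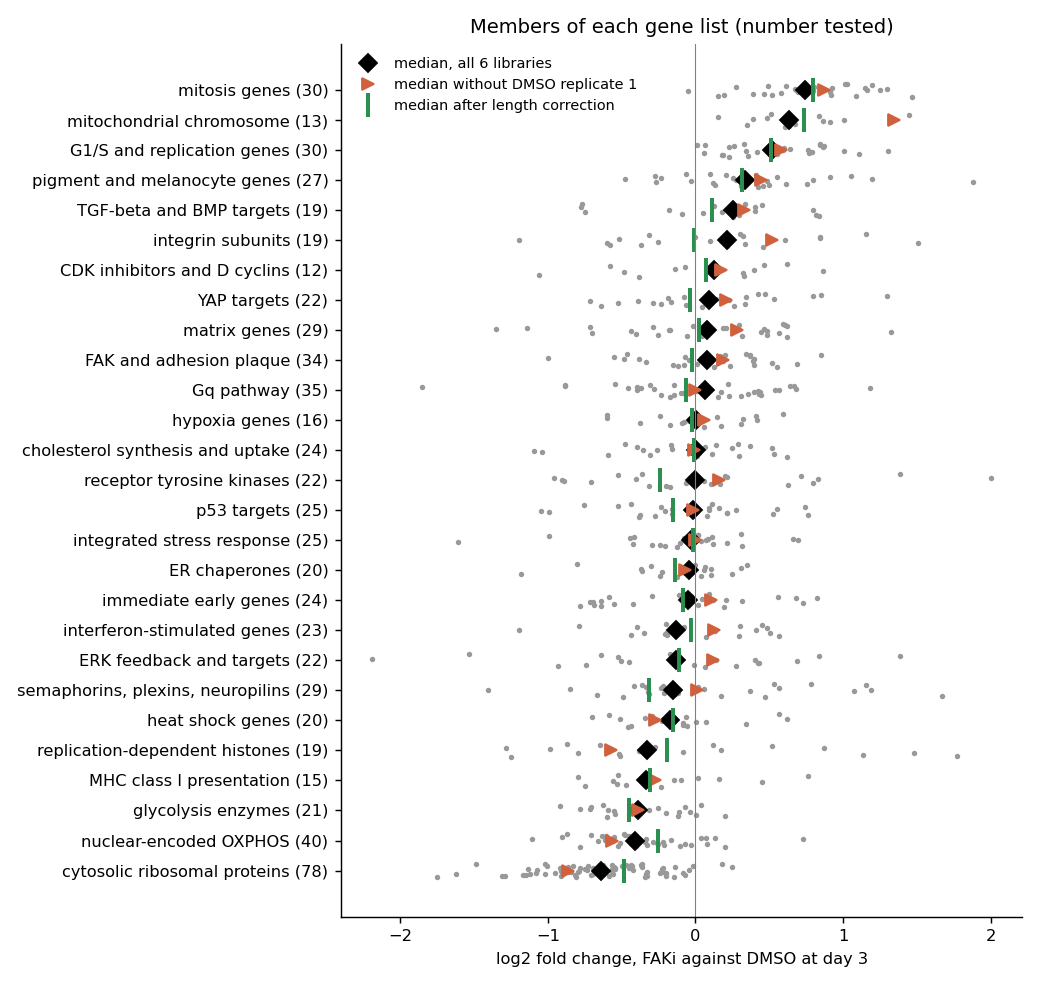
Each small point is the log2 fold change of a member of 1 of 27 gene lists in the comparison of all 6 libraries (horizontal axis), with the number of members tested beside each list name. Large symbols give the list median with all 6 libraries, without DMSO replicate 1 and after length correction. The mitosis genes have the highest median of these on all 6 libraries, 0.74, and the ribosomal proteins the lowest, -0.64.

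Of the 27 lists plotted, genes of cell division had the highest median with all 6 libraries, while without DMSO replicate 1 the mitochondrial chromosome had a higher one, 1.34. Of 30 genes of mitosis, which encode spindle, kinetochore and mitotic kinase proteins, 26 were higher in FAKi at an unadjusted p under 0.05 and 0 were lower, against 9.83% and 14% of all genes. In 25 of the 30 the lowest FAKi library exceeded the highest DMSO library, against 15.8% of all genes and 2785 of 14467 protein-coding genes. All lists here hold protein-coding genes alone, while the shares of all genes include other gene types. Of the 14467 protein-coding genes 1734 were higher and 2055 lower at an unadjusted p under 0.05. The median log2 fold change was 0.74, where the median of all genes was -0.02. It was 0.87 without DMSO replicate 1, 0.72 without replicate 2, 0.73 without replicate 3 and 0.79 after length correction, and 26, 22, 26 and 26 of the 30 were then higher at an unadjusted p under 0.05. In those 4 fits 21.3%, 6.51%, 8.71% and 10.3% of all genes were higher at that threshold. DESeq2 called 9 of the 30 as higher, against 1.33% of all genes, and edgeR without DMSO replicate 1 called 12, against 6.13%.

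*MKI67*, the proliferation marker Ki-67, was at 127, 53.9 and 41.8 CPM in DMSO and 165, 250.2 and 203 CPM in FAKi (log2 fold change 1.47, SE 0.37). The levels of DMSO replicates 2 and 3 lay below the day 0 range of 75.4, 69.3 and 95.02 and that of replicate 1 above it. *KIF11*, the motor that pushes spindle poles apart, was at 28.9, 20.5 and 16.3 CPM in DMSO and 45.2, 61.4 and 54.9 CPM in FAKi (log2 fold change 1.30, SE 0.22), with day 0 at 28.2, 23.2 and 27.6. *CENPE*, a kinetochore motor, was at 29.8, 22.6 and 13.3 CPM in DMSO and 41.98, 57.7 and 57.3 CPM in FAKi (log2 fold change 1.25, SE 0.27). *SGO1*, which protects the cohesion of sister chromatids, was at 5.51, 4.48 and 3.90 CPM in DMSO and 7.82, 11.7 and 12.5 in FAKi, a log2 fold change of 1.19. The 4 members that did not reach an unadjusted p under 0.05, named after their values were seen, were *CCNB1*, *CCNB2*, *CDC20* and *BIRC5*, with log2 fold changes of 0.16, 0.19, -0.05 and 0.28. Of these *CDC20*, the activator of the anaphase-promoting complex, was at 40.04, 40.6 and 54.3 CPM in DMSO and 43.4, 48.2 and 38.5 in FAKi.

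Summed over the 30 genes, the level was 1718, 1379 and 1334 CPM in DMSO, 2261, 2856 and 2621 CPM in FAKi, and 1614, 1380 and 1591 CPM at day 0. Each FAKi library was above all 6 DMSO libraries of days 0 and 3, and DMSO replicate 1 was the DMSO library nearest to FAKi. With 3 libraries against 3, a two-sided exact permutation test cannot go below p = 0.1.

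Many genes that peak in mitosis carry, close to their start, a DNA element known as the cell cycle genes homology region, which the MuvB complexes bind. Its letters TTTGAA or TTCGAA were searched in the 100 bases before the start of each gene in RefSeq's promoter table (GRCh38.p14). Both strands were read, so that TTCAAA along the gene also counts as a match to the first motif, while the second is its own reverse complement. The motifs cannot occupy the same bases. Of the 30 mitosis genes 25 had a promoter in the table, and 9 of these (36%) held a match, against 320 of 11222 protein-coding genes tested (2.85%) and 1350 of all 27305 promoters (4.94%). Of 26 promoters of G1/S genes 0 held one, and of 62 promoters of ribosomal protein genes 2 did (3.23%). The windows of 4 genes with a higher level in FAKi are shown, 5′ to 3′ along the gene and ending at the base before the start, with the matches in capitals to show where they fall.
MKI67: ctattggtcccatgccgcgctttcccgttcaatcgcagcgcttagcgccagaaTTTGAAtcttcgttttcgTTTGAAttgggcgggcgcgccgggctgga
KIF11: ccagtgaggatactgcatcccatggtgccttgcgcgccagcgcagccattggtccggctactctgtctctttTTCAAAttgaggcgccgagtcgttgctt
HMMR: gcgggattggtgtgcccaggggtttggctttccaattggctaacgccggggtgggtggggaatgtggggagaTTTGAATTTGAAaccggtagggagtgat
BUB1B: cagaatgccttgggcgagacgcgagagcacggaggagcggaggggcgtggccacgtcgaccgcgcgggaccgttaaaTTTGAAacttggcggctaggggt
The windows lie at chr10:128126424-128126523 on the minus strand for *MKI67* and on the plus strand at chr10:92593030-92593129 for *KIF11*, chr5:163460532-163460631 for *HMMR*, a spindle and hyaluronan receptor protein, and chr15:40160969-40161068 for *BUB1B*, a spindle checkpoint kinase. The first base of the match is 47 and 29 bases before the start in *MKI67*, 28 in *KIF11*, 28 and 22 in *HMMR*, where the copies touch, and 23 in *BUB1B*. The log2 fold changes of the 9 genes with a match ran from -0.05 in *CDC20* to 1.47 in *MKI67*, and those of the 16 without from 0.16 in *CCNB1* to 1.25 in *CENPE*, so both sets covered low and high values. A match is a description of the sequence.

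Genes of the G1/S transition and DNA replication had more members higher than the share over all genes. Of 30, 19 were higher at an unadjusted p under 0.05 and 0 lower, against 9.83% and 14% of all genes. All 19 were without overlap between the groups, against 15.8% of all genes, and the median log2 fold change was 0.52. The median was 0.58 without DMSO replicate 1 and 0.51 after length correction. DESeq2 called 3 of them as higher, against 1.33% of all genes, and edgeR without DMSO replicate 1 called 6, against 6.13%. *RRM2*, a subunit of ribonucleotide reductase, was at 28.2, 17.5 and 16.96 CPM in DMSO and 43.03, 65.3 and 47.2 CPM in FAKi (log2 fold change 1.31, SE 0.24). *MCM10* and *CDC45*, which start replication forks, were higher by 1.11 and 1.00, and *E2F2*, an activating E2F, by 0.87. The summed level was 1193, 1078 and 1118 CPM in DMSO, 1407, 1767 and 1605 CPM in FAKi and 1027, 1005 and 1020 CPM at day 0, so all FAKi libraries were above every DMSO library.

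Of 12 CDK inhibitors, D cyclins and their partners, which set the pace of the cell cycle, 3 were higher and 2 lower at an unadjusted p under 0.05, against 9.83% and 14% of all genes, with a median of 0.13. *CDKN1C*, the inhibitor p57, was lower, at 11.8, 19.99 and 25.4 CPM in DMSO and 8.92, 8.54 and 9.92 CPM in FAKi (log2 fold change -1.06, SE 0.27), and was called by DESeq2. *CDKN2C*, the inhibitor p18, was higher, at 11.1, 7.81 and 8.86 CPM in DMSO and 13.98, 21.9 and 14.9 in FAKi, as was *CDKN1B*, the inhibitor p27, with a log2 fold change of 0.33. *RB1*, the retinoblastoma protein, differed by 0.62. *CDK4* overlapped between groups, at 151, 247 and 302 CPM in DMSO and 154, 168 and 145 in FAKi, and shares 57.8% of its exon bases with another gene. Transcripts of replication-dependent histones mostly lack the poly(A) tail that mRNA libraries select. Of 19 tested, 1 was higher and 4 were lower at that threshold, against 9.83% and 14% of all genes. Among them *H2BC12* was at 9.94, 10.6 and 11.7 CPM in DMSO and 6.96, 5.72 and 3.47 in FAKi.

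**Figure D4:**
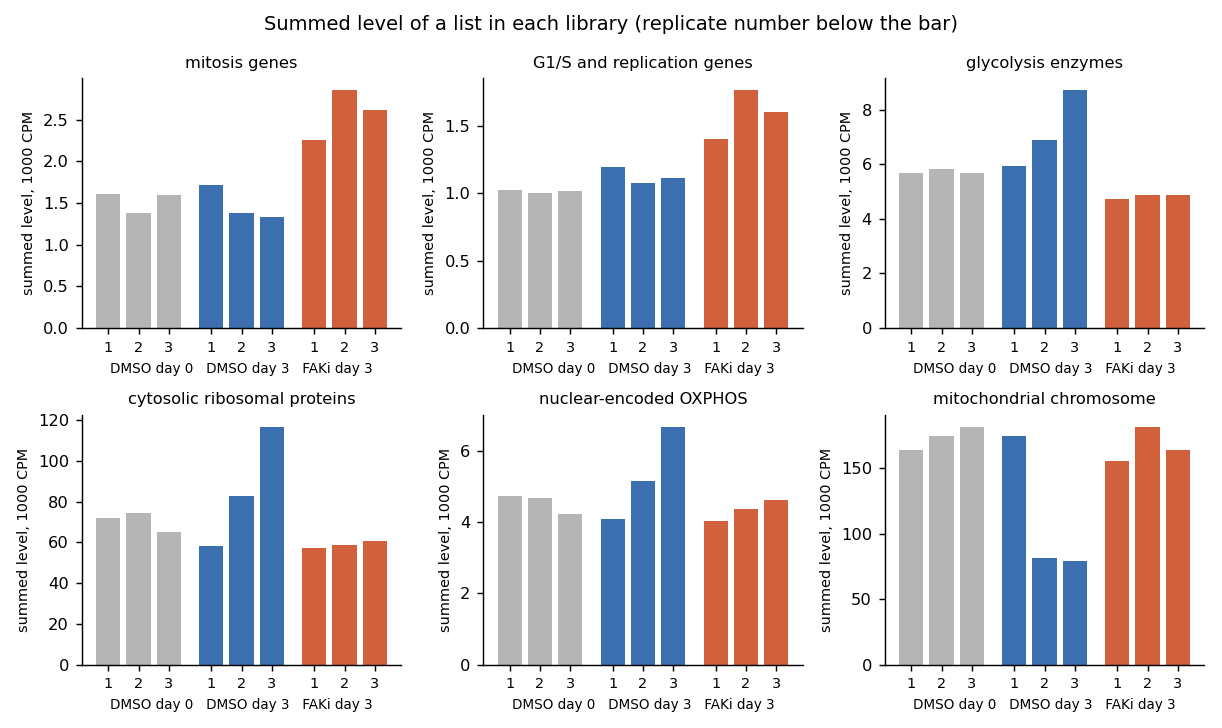
The summed CPM of 6 gene lists is shown for each DMSO library of day 0, each DMSO library of day 3 and each FAKi library of day 3, with 1 bar per library and axes that are scaled for each list. The FAKi bars are higher than all DMSO bars for mitosis and for G1/S genes. For ribosomal proteins DMSO replicates 2 and 3 of day 3 stand above the other libraries and for the mitochondrial chromosome they stand below.

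Ribosomal protein genes had the lowest median of those lists, and their difference followed DMSO replicates 2 and 3. Of 78 cytosolic ribosomal protein genes, 47 were lower at an unadjusted p under 0.05 and 0 higher, against 14% and 9.83% of all genes. The median log2 fold change was -0.64. In 18 of the 78 every FAKi library was below all DMSO libraries, against 15.3% of all genes. Their summed level was 58209, 82977 and 116659 CPM in DMSO and 57465, 58695 and 60474 CPM in FAKi, so DMSO replicate 1 lay within the FAKi range. Without DMSO replicate 1, 2 or 3, the counts of lower members were 67, 25 and 24 and the medians -0.87, -0.64 and -0.35, and after length correction 36 were lower with a median of -0.48. In those 4 fits 22.1%, 10.9%, 10.2% and 14.2% of all genes were lower at that threshold. These are short transcripts, with a median of 1194.5 bases, and many have processed pseudogenes that could share their reads. *RPS18* was at 245, 752 and 1027 CPM in DMSO and 238, 213 and 207 in FAKi.

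Transcripts of the mitochondrial chromosome moved the other way with the same libraries. Their sum was 174268, 81320 and 78866 CPM in DMSO and 155516, 181332 and 164121 CPM in FAKi, with day 0 at 164142, 174708 and 181363. Of 13 genes 3 were higher at an unadjusted p under 0.05, against 9.83% of all genes, and none of the 13 was free of overlap. The median of 0.63 became 1.34 without DMSO replicate 1, 0.39 without replicate 2 and 0.39 without replicate 3. *MT-ATP8*, a subunit of ATP synthase that shares 22.2% of its bases with *MT-ATP6*, was at 4344, 1206 and 809 CPM in DMSO and 4227, 6604 and 6514 in FAKi. Of 40 nuclear-encoded subunits of oxidative phosphorylation, 13 were lower and 1 was higher at that threshold, against 14% and 9.83% of all genes. In 7 of the 40 every FAKi library was below all DMSO libraries, against 15.3% of all genes. After length correction 9 were lower and 2 higher, against 14.2% and 10.3% of all genes. The median was -0.41, -0.57 without DMSO replicate 1 and -0.25 after length correction. *COX5A*, a subunit of cytochrome c oxidase, was at 44.2, 90.6 and 123 CPM in DMSO and 40.1, 42.5 and 36.98 in FAKi. The higher member was *UQCRB*, of complex III, at 349.7, 241 and 352 and 428, 503 and 629 CPM.

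Genes of glycolysis depended less on the library. Of 21 enzymes and transporters, 10 were lower at an unadjusted p under 0.05, against 14% of all genes, and 0 were higher, against 9.83%. All 10 were without overlap, against 15.3% of all genes. The median was -0.39, -0.39 without DMSO replicate 1, -0.45 without replicate 2, -0.28 without replicate 3 and -0.45 after length correction, with 11, 10, 9 and 10 members lower, against 22.1%, 10.9%, 10.2% and 14.2% of all genes. None of the 21 was called by DESeq2 or by edgeR without DMSO replicate 1. *GAPDH* was at 2451, 3048 and 4012 CPM in DMSO and 1825, 1839 and 1863 CPM in FAKi (log2 fold change -0.78, SE 0.21), and *ENO1*, enolase 1, at 698, 935 and 1168 and 604, 592 and 519.9. *ENO2*, the neuronal enolase, was at 5.30, 4.32 and 5.08 CPM in DMSO and 2.91, 2.90 and 1.95 in FAKi, and *SLC2A1*, the glucose transporter GLUT1, at 18.1, 22.8 and 20.6 and 14.6, 14.03 and 11.8. The summed level was 5935, 6870 and 8709 CPM in DMSO, 4733, 4858 and 4862 CPM in FAKi and 5675, 5825 and 5680 CPM at day 0, so the FAKi libraries were below every DMSO library of both days.

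The transcript of the inhibited kinase itself differed little. *PTK2* was at 160.5, 167 and 134 CPM in DMSO and 172, 164 and 169 CPM in FAKi, a log2 fold change of 0.13 (SE 0.15), and the groups overlapped. *GNAQ* was at 50.5, 45.5 and 39.4 CPM in DMSO and 53, 49.8 and 47.9 in FAKi, a log2 fold change of 0.15 (SE 0.15), which became -0.09 after length correction. VS-4718 acts on the protein, so these transcripts do not check the treatment.

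The lists that follow are counted at an unadjusted p under 0.05, where 9.83% of all genes were higher and 14% lower, and a count near these shares is no result about the list. Of 34 genes of FAK and the adhesion plaque, 4 were higher and 4 lower at an unadjusted p under 0.05, with a median of 0.08 that was -0.02 after length correction. *PTK2B*, the related kinase PYK2, was at 8.31, 6.03 and 6.92 CPM in DMSO and 9.27, 10.7 and 11.3 CPM in FAKi (log2 fold change 0.55, SE 0.20), and *NEDD9*, a docking protein bound by both kinases, at 14.9, 9.29 and 7.37 and 15.4, 18.2 and 17.4. *TLN2*, talin 2, was higher by 0.52, and by 0.13 after length correction. *ASAP1*, a GTPase-activating protein at adhesions, was at 258, 138 and 79.6 CPM in DMSO and 273, 315 and 271 in FAKi, with a DMSO spread wider than the difference between the group means. *GIT1*, an adaptor of paxillin, and *VASP*, an actin regulator, were lower by -0.55 and -0.46, and *FERMT1*, kindlin 1, by -0.49.

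Among 19 integrin subunits, 2 were higher and 5 lower, *ITGA9* above being the member with the largest value. *ITGB1*, the shared beta-1 subunit, was at 454, 316 and 144 CPM in DMSO and 529.8, 538 and 568 CPM in FAKi, and the day 0 libraries at 492, 433 and 444, so DMSO replicates 2 and 3 were low and all others high. *ITGA3*, a laminin receptor subunit, was lower at 28, 21.5 and 27.5 against 45.6, 32.7 and 36.6 CPM, and *ITGAE* was at 4.41, 4.94 and 4.92 against 5.27, 11.5 and 15.97, with DMSO replicate 1 near the FAKi level. Of 29 matrix genes 4 were higher and 3 lower. Laminin chains went apart, with *LAMA3* higher at 2.71, 3.996 and 3.76 against 2.10, 1.21 and 0.764 CPM and *LAMB3* lower at 1.65, 0.627 and 0.724 against 2.33, 2.54 and 3.09. *COL18A1*, the source of endostatin, was lower by -0.70 and *COL6A2* by -0.41.

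YAP targets had 4 members higher and 2 lower of 22, with a median of 0.09 that was -0.03 after length correction. *CCN2*, the connective tissue growth factor and a standard YAP target, was at 2.92, 3.26 and 2.18 CPM in DMSO and 1.75, 1.96 and 1.66 CPM in FAKi (log2 fold change -0.64, SE 0.27). *FJX1* was at 20.02, 21.5 and 22.8 CPM in DMSO and 13.1, 12.5 and 13.6 in FAKi, and *DLC1*, a GTPase-activating protein, was higher by 0.47. The targets *ANKRD1* and *AXL* had under 20 counts and were not tested. None of the 22 was called by DESeq2.

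Genes that ERK induces, among them phosphatases that switch it off and ETS transcription factors, had 3 members higher and 6 lower of 22, with a median of -0.13, and 0.12 without DMSO replicate 1. *DUSP5*, a phosphatase that binds ERK, was at 4.43, 5.99 and 6.72 CPM in DMSO and 3.51, 2.51 and 2.89 CPM in FAKi (log2 fold change -0.93, SE 0.25), and *SPRY1*, a Sprouty inhibitor, at 11.9, 15.5 and 10.2 and 7.56, 7.44 and 7.38. Of the ETS factors, *ETV4* was lower at 117, 117 and 101 against 179, 130.4 and 168 CPM, and *ETV1* was higher at 34.02, 42.2 and 39.9 against 32.6, 23.03 and 16.4. *DUSP6*, the best known of these phosphatases and named here after its values were seen, was at 53.6, 38.01 and 33.5 CPM in DMSO and 49.04, 55.7 and 46.97 in FAKi (log2 fold change 0.28).

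Immediate early genes had 2 members higher and 6 lower of 24. *KLF6* was at 100.2, 88.9 and 71.8 CPM in DMSO and 146, 167 and 149 CPM in FAKi (log2 fold change 0.83, SE 0.17), above the day 0 level of 106, 106 and 102. *NR4A1*, an orphan nuclear receptor, was lower at 202, 184 and 165 against 358, 228 and 241 CPM, and *FOSL2*, an AP-1 subunit, at 5.41, 3.92 and 3.55 against 8.19, 6.94 and 5.73. *IER2* was lower by -0.64, with 54.8% of its exon bases shared with another gene. *EGR1* overlapped between groups, with DMSO replicate 1 at the FAKi level.

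In the Gq pathway 4 of 35 genes were higher and 7 lower, near the shares over all genes. Of its 10 tested regulators of G protein signalling 5 were lower and 1 higher, a subset counted after its values were seen. Beside *RGS2* and *RGS3*, whose log2 fold change was -0.39, *RGS16* was at 13.6, 15.02 and 18.1 CPM in DMSO and 7.36, 6.89 and 11.1 CPM in FAKi (log2 fold change -0.88, SE 0.22), *RGS19* was lower by -0.55 and *RGS10*, whose groups overlapped, by -0.89. *RGS5* was higher by 0.64. *DGKI*, a kinase that removes the lipid messenger diacylglycerol, was at 55.3, 43.02 and 29.8 CPM in DMSO and 83.3, 114 and 93.7 CPM in FAKi (log2 fold change 1.18, SE 0.23), and was called by DESeq2. *ARF6*, a small GTPase of membrane traffic, was higher by 0.42, and *PRKCB*, protein kinase C beta, by 0.43 with overlapping groups.

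Of 22 receptor tyrosine kinases, 6 were higher and 5 lower. *EPHA4* was at 2.24, 2.05 and 1.18 CPM in DMSO and 3.91, 5.88 and 4.70 CPM in FAKi (log2 fold change 1.39, SE 0.30), while *EPHA2*, another ephrin receptor, was lower at 35.8, 32.3 and 33.9 against 51.7, 46.4 and 48.4. *FGFR4* was at 26.8, 25.3 and 30.1 CPM in DMSO and 15.2, 12.4 and 16.6 CPM in FAKi (log2 fold change -0.89, SE 0.17), and *FGFR3* was lower by -0.71 while *FGFR2* was higher by 0.80. *TYRO3*, of the TAM family, was lower by -0.40. *EGFR* and *KIT* had under 20 counts.

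Semaphorins, plexins and neuropilins, guidance ligands and their receptors, had 5 members higher and 6 lower of 29. The median was -0.15, 0.01 without DMSO replicate 1 and -0.31 after length correction. With that correction 5 were higher and 11 lower, against 10.3% and 14.2% of all genes. In 10 of the 29 every FAKi library was below all DMSO libraries, against 15.3% of all genes. In 5 every FAKi library was above them, against 15.8%. DESeq2 called 4 higher and 1 lower, against 1.33% and 2.92% of all genes. Of the ligands, *SEMA6D* was at 7.72, 5.31 and 2.64 CPM in DMSO and 11.2, 12.6 and 12.2 CPM in FAKi (log2 fold change 1.19, SE 0.33), and *SEMA6A* at 550.2, 307 and 262 and 722, 879 and 757, with DMSO replicate 1 in each between the other DMSO libraries and FAKi. Secreted *SEMA3B* and *SEMA3F* and membrane-anchored *SEMA7A* were lower by -0.49, -0.66 and -0.85, against the 1.67 of *SEMA3C*. The receptor *PLXNC1*, which binds SEMA7A, was higher at 79.7, 100.0 and 87.8 against 51.3, 43.3 and 25.03 CPM (log2 fold change 1.16, SE 0.24).

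Pigment cell genes had a larger share of higher members than all genes. Of 27, 11 were higher at an unadjusted p under 0.05 and 1 lower, against 9.83% and 14% of all genes. In 13 every FAKi library was above all DMSO libraries, against 15.8% of all genes, and the median was 0.33, 0.45 without DMSO replicate 1 and 0.32 after length correction. The summed level of the 27 genes overlapped between groups, at 16739, 18637 and 17145 CPM in DMSO and 18146, 18725 and 17946 CPM in FAKi. *DCT*, which converts dopachrome in melanin synthesis, was at 11.4, 4.93 and 2.60 CPM in DMSO and 19.5, 23.5 and 27.7 CPM in FAKi (log2 fold change 1.88, SE 0.43). *RAB27A*, which tethers melanosomes to actin, was at 18.6, 15.4 and 12.1 CPM in DMSO and 29.9, 40.3 and 35.7 CPM in FAKi (log2 fold change 1.19, SE 0.20), and its motor partner *MYO5A* was at 114, 80.6 and 50.97 and 143, 169 and 151. *EDNRB*, the endothelin receptor of melanocytes, was at 84.02, 64.98 and 49.9 CPM in DMSO and 120.4, 148 and 146 in FAKi. The abundant melanosome protein *PMEL* was not among them, at 4338, 5888 and 6465 CPM in DMSO and 4707, 4696 and 4485 in FAKi, and *GPR143*, a melanosomal receptor, was lower at 105, 111 and 105 against 111, 154 and 181.

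Genes of the p53 response had 3 members higher and 5 lower of 25. *PMAIP1*, the death factor NOXA, was at 52.8, 36.9 and 31.3 CPM in DMSO and 65.5, 68.3 and 72.1 CPM in FAKi (log2 fold change 0.77, SE 0.20), and *DDB2*, a sensor of ultraviolet damage, at 6.23, 5.96 and 6.92 and 10.9, 11.3 and 9.70. *GDF15*, a stress cytokine, was lower at 13.7, 14.1 and 12.5 against 32.97, 21.1 and 25.98 CPM (log2 fold change -0.99, SE 0.19), and *PLK2*, a polo-like kinase, at 6.96, 5.25 and 4.27 against 11.2, 11.9 and 11.1. *CDKN1A*, the best known target and named here after its values were seen, was at 76.6, 55.5 and 56.8 CPM in DMSO and 54.7, 45.2 and 44.7 in FAKi.

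In cholesterol synthesis 3 of 24 genes were higher and 4 lower, near the shares over all genes. *SQLE*, squalene epoxidase, was at 322, 533 and 430.0 CPM in DMSO and 242, 187 and 196 CPM in FAKi (log2 fold change -1.04, SE 0.21), *TM7SF2*, a sterol reductase, was lower by -1.09, and both were called by DESeq2. *HMGCS1* and *IDI1*, of the mevalonate steps, were higher by 0.62 and 0.53. Among TGF-beta and BMP targets 3 of 19 were higher and 2 lower. *ID2* and *ID4*, inhibitors of differentiation, were higher at 51.05, 61.7 and 45.8 against 32.7, 27.9 and 28.1 CPM and 57.8, 70.8 and 70.1 against 43.3, 32.97 and 36.2 CPM.

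Stress lists had few members past that threshold. The integrated stress response had 1 of 25 higher and 3 lower, ER chaperones 0 of 20 higher and 2 lower, heat shock genes 2 of 20 higher and 3 lower, and hypoxia genes 1 of 16 higher and 1 lower. *SDF2L1*, an ER chaperone cofactor, was at 10.6, 16.2 and 23.2 CPM in DMSO and 6.56, 8.85 and 6.66 in FAKi, and *SLC7A11*, the cystine transporter, at 128, 87.9 and 55.2 and 132, 163 and 134. Interferon-stimulated genes had 2 of 23 higher and 0 lower, among them *STAT2* at 55.9, 42.4 and 36.9 CPM in DMSO and 66.3, 58.3 and 64.2 in FAKi. In MHC class I presentation 2 of 15 were higher and 4 lower, with the light chain *B2M* higher at 290.0, 350.3 and 332 against 243, 212 and 256 CPM and *HLA-B* lower at 55.7, 55.6 and 55.4 against 65.7, 91.99 and 123.

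The genes that set DMSO replicate 1 apart from the other DMSO libraries were picked by that difference, and their levels show what the split looks like in single genes. *RPL39* was at 142, 453 and 639 CPM in DMSO and 154, 143 and 143 in FAKi, and *RPS3A* at 73.9, 330.3 and 468 and 87.1, 83.99 and 88.2, with day 0 at 109, 114 and 88.9. *SH3D19*, *ATG10* and *TIPIN* showed the same pattern, and 52.1%, 41.4% and 79.4% of their exon bases are shared with *RPS3A*, *RPS23* and the ribosomal protein pseudogene *RPL9P25*. In the other direction *MDC1*, a mediator of the DNA damage checkpoint, was at 117, 38.96 and 28.5 CPM in DMSO and 143, 176 and 146 in FAKi. *EYS* was at 8.12, 2.09 and 0.917 CPM in DMSO and 7.16, 6.97 and 8.83 in FAKi, and *MUC7* at 14.8, 3.34 and 2.71 and 10.7, 14.2 and 12.5. In each of these genes DMSO replicate 1 lay nearer to the FAKi values than the other DMSO libraries did.

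**Figure D5:**
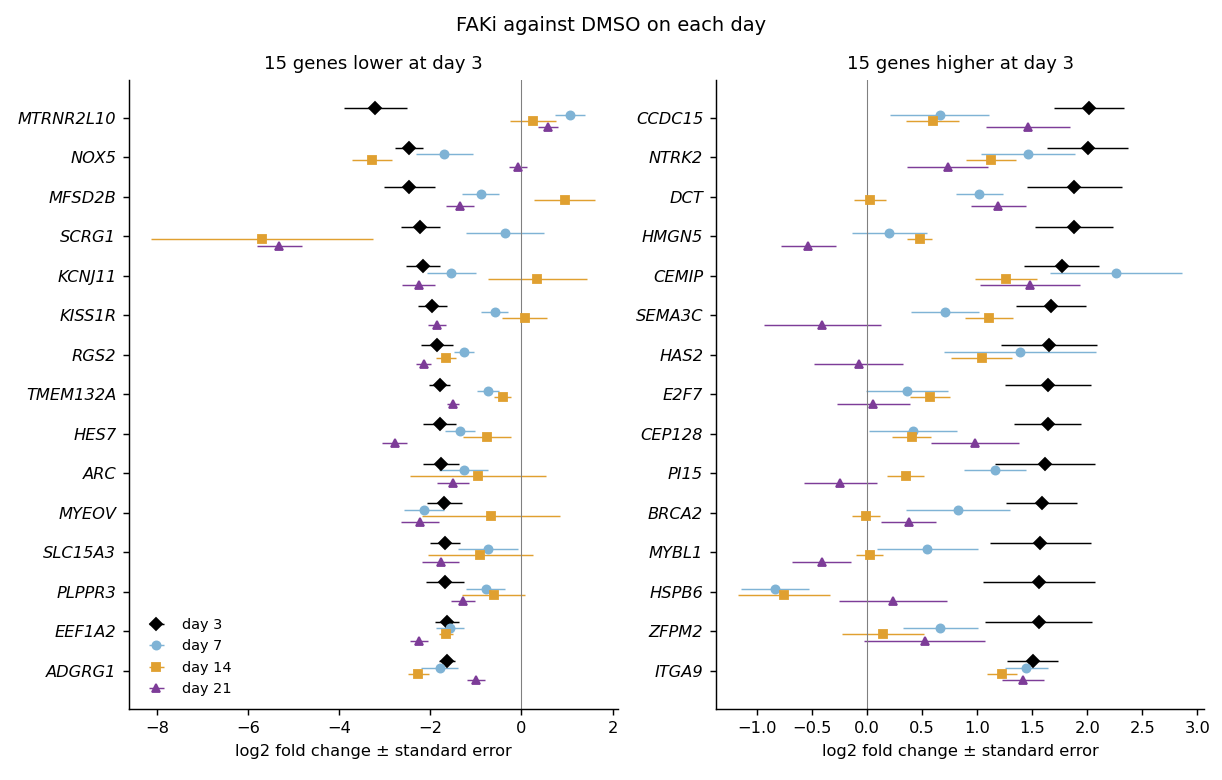
The log2 fold change of FAKi over DMSO with its SE (horizontal axis) is shown at days 3, 7, 14 and 21 for the 30 genes with the largest day 3 fold change under the naming rule, each day from its own 6 libraries. *ITGA9* stays between 1.23 and 1.5 and *RGS2* between -2.15 and -1.27, while *HMGN5* and *MTRNR2L10* change sign at later days.

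Later days have their own DMSO libraries and so give separate measurements of the same genes, but the DMSO libraries of day 21 were also split. Mitochondrial reads there made up 5.486%, 5.492% and 9.748% of the counts in DMSO and 10.698% to 11.196% in FAKi. Ribosomal protein genes held 17.03%, 17.11% and 10.01% in DMSO and 9.896% to 12.04% in FAKi. The part of this split in the day 21 results was not tested. Of the 15 higher genes, 14, 13 and 10 had a positive log2 fold change at days 7, 14 and 21, and 0, 5 and 3 of them were called as higher by edgeR on those days, against 0%, 0.614% and 2.58% of all genes. Of the 15 lower genes, 14, 11 and 14 were negative and 0, 4 and 13 were called as lower, against 0.0269%, 1.04% and 2.71% of all genes. For the 159 higher genes the counts were 144, 116 and 114, and for the 149 lower genes 131, 87 and 141, while over all protein-coding genes 8652 of 14217, 6431 of 14216 and 9285 of 14250 had the same sign as at day 3. *ADGRG1* was at -1.80, -2.26 and -1.01 on the 3 later days, *HLX* at -1.75, -1.5 and -1.15, *RGS2* at -1.27, -1.66 and -2.15, and *EEF1A2* at -1.58, -1.65 and -2.25. *ITGA9* was at 1.45, 1.23 and 1.42.

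The effect of day 3 was set against the mean effect of days 7, 14 and 21 in a fit of 24 libraries. That mean includes day 21 with its split DMSO libraries. In edgeR's quasi-likelihood test, adjusted by Benjamini-Hochberg, 254 of 27897 genes (0.91%) differed with an absolute log2 difference over 1, of which 106 were larger at day 3. This count ranged from 11 without FAKi day 3 replicate 3 to 1292 without DMSO day 3 replicate 1, and was 20 and 13 without DMSO day 3 replicates 2 and 3 and 17 without FAKi day 3 replicate 2, so it rests on single libraries. At an unadjusted p under 0.05, 2035 genes (7.29%) were larger and 2704 (9.69%) smaller at day 3.

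Mitosis genes stood out here too. Of the 30, 29 had a larger log2 fold change at day 3 at an unadjusted p under 0.05, against 7.29% of all genes. A smaller one was found for 0, against 9.69%, and 8 were called, against 0.91%. The count of larger members stayed between 26 and 29 whichever of the 24 libraries was left out. Their median log2 fold change was 0.74 at day 3 and 0.07, 0.30 and -0.65 at days 7, 14 and 21. For G1/S genes it was 0.52 at day 3 and 0.59, 0.75 and -0.43, and 4 of the 30 were larger at day 3, a count that ranged from 2 to 20 with a library left out. *KIF11* was at 1.30 at day 3 and 0.19, 0.29 and -0.02 later (difference 1.14, adjusted p = 0.0412 in edgeR), and *CENPE* at 1.25 and -0.21, -0.31 and -0.01. *NEK2*, a centrosomal kinase, was at 0.63 at day 3 and -0.35, -0.10 and -0.94 later (difference 1.10, adjusted p = 0.00533 in edgeR).

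ERK targets had a larger share of members with a larger log2 fold change at day 3 than all genes. Of 22, 10 had a larger log2 fold change at day 3 and 0 a smaller one, against 7.29% and 9.69% of all genes. The count of larger members ranged from 8 to 11 with a library left out, and 3 were called, against 0.91%. The medians were -0.13 at day 3, or 0.12 without DMSO replicate 1, and -0.56, -0.46 and -0.60 later. *ETV4* was at -0.51 at day 3 and -1.48, -2.43 and -2.20 later (difference 1.53, adjusted p = 0.0343 in edgeR), and *DUSP6* at 0.28 and -1.01, -0.76 and -0.66. *HMGA2*, a chromatin protein, was at 0.35 at day 3 and -0.74, -1.19 and -1.83 later. *NRCAM*, a neuronal adhesion molecule, was at -0.21 at day 3 and -1.96, -1.63 and -5.90, the smallest p of the contrast (difference 2.95, adjusted p = 0.000216 in edgeR). For the integrated stress response, 12 of 25 genes were larger and 0 smaller at day 3, against 7.29% and 9.69% of all genes. That count of larger genes ranged from 9 to 16 with a library left out, and 0 were called, against 0.91%. The medians were -0.03 at day 3 and -0.41, -1.43 and -0.37 at days 7, 14 and 21, with day 14 the lowest.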

How the data were processed

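RNA of 92.1 cells was made into TruSeq Stranded mRNA libraries, 3 per group. According to the methods, the file header and the submitters' processing notes, the authors trimmed reads with Trim Galore, checked them with FastQC 0.11.8, aligned them to hg38 with STAR 2.5.3a and counted exon reads of a single transcript per GENCODE gene with HOMER. The deposited values are raw counts, not normalized. Whether the counting used strand, and how it treated multi-mapping reads, is not given in the sources used here. All columns were matched to samples by their labels, with 0 left over.

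FAKi and DMSO at day 3, 3 libraries each, were compared with edgeR 4.0.16 (with limma 3.58.1 and R 4.3.3) after removal of genes under 20 counts in total, TMM scaling, the quasi-likelihood test and Benjamini-Hochberg adjustment over all genes tested. A called gene had an adjusted p up to 0.05 and a log2 fold change beyond 1 in either direction. The thresholds and the count filter are those of the study's methods, whose tool, DESeq2 (1.42.0 here), was an alternative. The difference between day 3 and the mean of days 7, 14 and 21 was tested over 24 libraries. The length correction subtracted from each library a loess curve (span 0.5) of its log2 level on transcript length. The DMSO libraries of day 0 were scaled together with the 6 of day 3. With 13135695 counts in the shallowest library, 1 CPM is about 13 counts.

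Named genes were *PTK2* and *GNAQ*; the 15 higher and 15 lower protein-coding genes described in the text; the 10 with the smallest p; up to 4 members of each list in each direction at an unadjusted p under 0.05 and a mean of at least 1 CPM, or the member with the smallest p; the 8 highest and 8 lowest in DMSO replicate 1 against the other DMSO libraries; and the 5 with the smallest p in the test between days. Not every gene the rule took is printed. The comparison, gene lists, tests and alternatives were chosen with earlier results of these data known. The alternatives were RLE and upper quartile scaling, other count filters, all 27 libraries in one fit, DESeq2, other thresholds, edgeR's other quasi-likelihood method, thinning to the smallest library, no mitochondrial genes, the length correction, the replicate block and each library left out. The scripts were tested on simulated data.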

Additional observations from a re-analysis of the deposited data

Results flagged for a closer look

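The effect of FAKi at day 3 differed from its mean effect at days 7, 14 and 21 in 254 genes by a test of the difference itself (edgeR's quasi-likelihood test over 24 libraries, adjusted by Benjamini-Hochberg), and 20 genes named by the rules were among them. Of these, *NRCAM*, *BEX4*, *HMGA2*, *FRG1* and *NEK2* were named for their small p in this same test. The values below are that difference on the log2 scale. It was positive, that is larger at day 3, for the spindle and centrosome genes *CENPE* (1.43), *KIF11* (1.14), *NEK2* (1.10) and *LRRCC1* (1.03), for the ERK-induced ETS factors *ETV4* (1.53) and *ETV1* (1.2), for the chromatin proteins *HMGN5* (1.83) and *HMGA2* (1.61), and for the p53 target *PMAIP1* (1.45). It was also positive for *NRCAM* (2.95), *MUC7* (3.66), *HSPB6* (2.02), *BEX4* (1.16), *UQCRB* (1.09) and *FRG1* (1.45), the last of which has near-identical copies that could share its reads. *MUC7* was named for its high level in DMSO replicate 1 of day 3, which lay above every FAKi library. Its day 3 value thus rested on DMSO replicates 2 and 3, which were low. In *HMGN5* and *HSPB6* DMSO replicate 1 was the DMSO library of day 3 nearest to FAKi. *BEX4* was at 0.73 at day 3 and -0.01, -0.85 and -0.41 at days 7, 14 and 21.

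The difference was negative for *SDF2L1* (-1.38), *H2BC12* (-1.40), *RPS18* (-1.35), *MTRNR2L10* (-3.84) and *LMNTD1* (-3.27). In *LMNTD1*, *MTRNR2L10* and *RPS18* the day 3 level was high in DMSO replicates 2 and 3 and near the FAKi level in DMSO replicate 1, as *LMNTD1* shows with 1.89, 19.3 and 24.95 CPM in DMSO and 1.40, 2.74 and 1.23 in FAKi. *LMNTD1* shares 19.5% of its exon bases with another gene on the same strand.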

How the results depend on the processing

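The count of 0 genes called at day 3 stayed 0 with RLE or upper quartile scaling, a minimum of 10 counts in every library, filterByExpr, edgeR's other quasi-likelihood method, no mitochondrial genes, the adjusted p alone and an adjusted p of at most 0.01. It became 1181 when low counts were kept, 827 when the 27 libraries shared one fit, 745 with DESeq2 (1842 by its adjusted p alone, added after seeing the data), 6 after thinning, 17 after length correction and 2410 with length correction and no DMSO replicate 1 (added after seeing the data). With a library left out it ranged from 0 to 2765. The replicate block gave 0 genes, alone and with length correction. Deviations of same-numbered libraries correlated at 0.0073, 0.0468 and 0.111, and the numbers were not taken to pair the samples. With DMSO libraries that differ this widely, low correlations cannot show that the samples are unpaired. The column labels of both treatments also carry an NGS tag numbered like the replicate. The causes were not tested.

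The 254 genes that differed between day 3 and later days became 516 with DESeq2, 552 with the adjusted p alone and 354 with the replicate block, and ranged from 11 to 1292 with a library left out. The mean distance between FAKi libraries was 0.199 rather than 0.312 over genes of at least 10 CPM. *PTK2* changed sign after length correction, to -0.00085, and with that correction and no DMSO replicate 1, to -0.036, and *GNAQ* likewise, to -0.087 and -0.12, and to -0.086 with length correction and the replicate block. The list medians printed for day 3 kept their sign under RLE and upper quartile scaling. Depth limits genes near 1 CPM most, where the shallowest library had about 13 counts.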
